A study of Mus musculus with 10 samples.

Results

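The 10 genes described here encode chaperones of the endoplasmic reticulum (ER) and the proteins that sense or relay ER stress. They were chosen by name, as *Hsp90b1*, *Calr*, *Canx*, *Pdia3*, *Pdia4*, *Pdia6*, *Xbp1*, *Ern1*, *Eif2ak3* and *Atf6*, out of 55453 gene symbols in the count table, and the rule used no measured value. All 10 had enough counts to be among the 14614 genes tested. Bulk RNA sequencing was done on the aortae of male C57BL/6 mice, 5 young mice aged 14.5 weeks and 5 old mice aged 92.5 weeks by the sample labels. Mice of both ages were killed at the same time, the fat around the vessel was removed, and each library came from 1 mouse. The study asked which genes differ between young and old aortae. A whole aorta holds smooth muscle, endothelial, adventitial and immune cells, so that less RNA per cell and fewer cells of a type cannot be told apart.

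The ER is where secreted and membrane proteins are folded, and in the aorta these include the collagens and elastin of the vessel wall. Chaperones hold unfolded chains, lectin chaperones retain glycoproteins until they are folded, and protein disulfide isomerases form and rearrange disulfide bonds. When unfolded proteins accumulate, the unfolded protein response (UPR) is started by 3 membrane sensors, IRE1 (encoded by *Ern1*), PERK (*Eif2ak3*) and ATF6 (*Atf6*). IRE1 splices the *Xbp1* mRNA so that it encodes an active transcription factor, PERK lowers translation by phosphorylating the initiation factor eIF2, and ATF6 is cleaved to release a transcription factor. Sensor activity is set largely by the proteins, and counts per gene report neither splicing of *Xbp1*, nor phosphorylation, nor cleavage.

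ATF6 and XBP1 act through short promoter elements, and the best known is the ER stress response element (ERSE), which is CCAAT, 9 bases of any kind and CCACG. It was searched on both strands of the RefSeq promoter windows of GRCm38.p6, which run from 250 bases before to 50 bases after each start. Of the 10 genes, 9 had a window, all but *Atf6*, and 4 of these 9 (44.4%) held the element, against 18 of 11008 tested genes with a window (0.164%) and 39 of all 32851 windows (0.119%). Since the element was already known from UPR targets, the higher share among these genes is a description and no independent result. The stretches are shown because these 4 genes carry it, beside the one of *Hspa5*, which encodes the ER Hsp70 protein BiP and is the classic UPR target. They are written 5′ to 3′ on the strand of the gene, with the fixed letters of the element in capitals, and an element on the other strand reads CGTGG followed by ATTGG. *Hsp90b1* held 2 matches, and its stretch, chr10:86705523-86705666, spans both of them.
Hsp90b1: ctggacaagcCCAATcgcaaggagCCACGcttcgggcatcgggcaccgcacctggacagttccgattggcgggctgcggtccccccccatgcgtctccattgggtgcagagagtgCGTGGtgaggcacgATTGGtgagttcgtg
Calr (chr8:84847065-84847103): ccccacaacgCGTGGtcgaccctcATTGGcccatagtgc
Canx (chr11:50325790-50325828): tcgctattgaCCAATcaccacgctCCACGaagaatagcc
Pdia6 (chr12:17266481-17266519): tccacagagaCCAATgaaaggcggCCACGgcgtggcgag
Hspa5 (chr2:34772015-34772053): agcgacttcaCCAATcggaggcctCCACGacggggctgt

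The stretches of *Hsp90b1*, *Calr* and *Canx* are on the minus strand of the genome, and those of *Pdia6* and *Hspa5* on the plus strand. All the stretches lie between 222 and 37 bases before the RefSeq start of their gene. Among 95 windows of the other ER genes listed below, 6 held the ERSE (6.32%), those of *Hspa5*, *Dnajc3*, *Creld2*, *Ero1lb*, *Syvn1* and *Derl3*. The related ERSE-II (ATTGG, 1 base of any kind and CCACG) was in none of the 9 windows, in those of *Dnajb11* and *Herpud1* among the other ER genes, and in 0.0818% of tested genes. The core of the UPR element (TGACGTGG) was in none of the 9 windows and in 1.09% of tested genes. A heat shock element (GAA, TTC and GAA with 2 bases of any kind between them), the site of heat shock factors, was in none of the 9 windows, in 3 of 10 windows of cytosolic and mitochondrial chaperones (*Hsph1*, *Hspd1*, *Hspe1*) and in 0.581% of tested genes. These matches describe letters in the reference sequence and show no binding. Only exact matches within the window were counted, so a window without a match may still hold a variant of the element.

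The libraries held 19640401 to 22886153 counts each, and the genes of the mitochondrial genome took 4.50% to 6.51% of them in 9 libraries and 11.0% in old replicate 2. The aortic libraries held the smooth muscle markers at a summed level of 736475 to 945758 normalized counts (counts divided by a size factor per library). The summed level of 6 macrophage markers was 6731 to 8493 in the young mice and 8504 to 17113 in the old mice, with 2 of 6 called higher. That of 6 endothelial markers was 18905 to 32453 in the young mice and 9719 to 22539 in the old mice, with 0 of 6 called. The 6 T cell markers had a median sum of 18.3 in young and 76.2 in old aortae, and the 2 of them that were tested were called higher. Of 6 fibroblast markers, 1 was called higher (*Lum*) and 2 lower (*Col1a1*, *Pi16*). Of 7 smooth muscle markers, 1 was called higher (*Smtn*) and 0 lower. No marker of these lists was at 0 in all libraries. The part of these differences in the results below was not tested.

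None of the 10 genes passed the test between old and young aortae, and their fold changes were small. In edgeR's quasi-likelihood test, 0 of 10 reached a Benjamini-Hochberg adjusted p below 0.05, while 11.5% of all tested genes did (1676 genes, 6.48% of tested genes higher and 4.99% lower in old aortae). DESeq2 and limma-voom also called 0 of the 10. At an unadjusted p below 0.05 edgeR gave 1 of the 10, *Eif2ak3*, against 26.7% of all tested genes. In none of the 10 did the young and old values separate without overlap, as they did for 9.92% of tested genes. The log2 fold changes, old over young, lay between -0.20 and 0.07. Their median was -0.06, against 0.00 over all tested genes, and 8 were negative and 2 positive. Their 95% confidence intervals were narrow, and all 10 lay within a log2 fold change of ±0.5, as did 9053 of the 14614 tested genes (61.9%). Upper-quartile scaling and scaling by library size alone, which moved the median of all genes to 0.03, left 7 of the 10 negative, with a median of -0.03 under either.

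**Figure D1:**
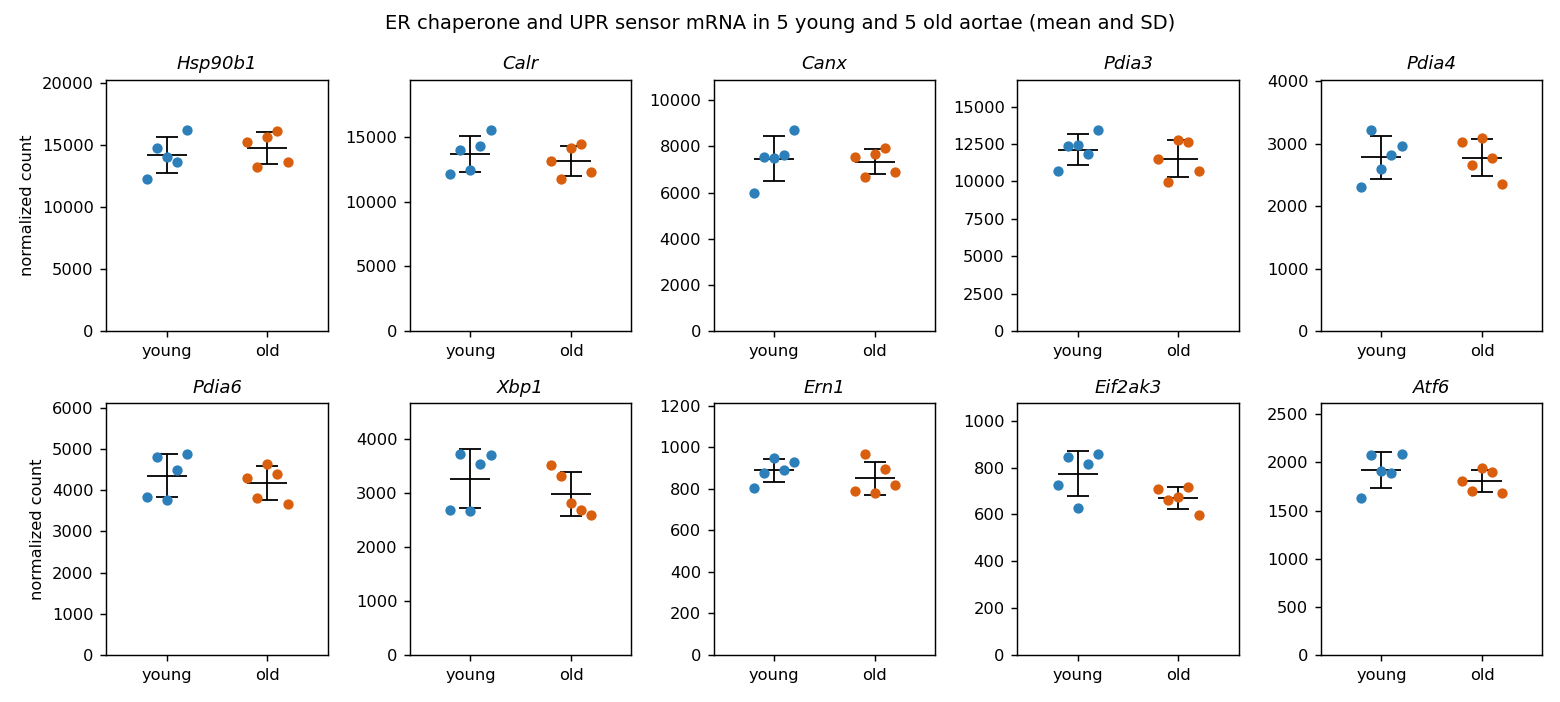
Normalized count (vertical axis, from 0) of each of the 10 genes in 5 young (blue) and 5 old (orange) aortae. Each point is 1 mouse, and the black bars give the mean and SD. In every panel the points of both ages overlap, and the lowest young value of most chaperones belongs to young replicate 1.

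*Hsp90b1* encodes GRP94, the Hsp90 protein of the ER lumen, and lies on chromosome 10 (86690209 to 86705509, minus strand, GRCm38). Its normalized counts were 12270, 14737, 14064, 13656 and 16206 in the young aortae and 15235, 13253, 15659, 16096 and 13604 in the old aortae. The highest and the lowest value were both from young mice. The means were 14187 ± 1445 (SD, n = 5) in the young mice and 14769 ± 1268 (SD, n = 5) in the old mice, and the log2 fold change was 0.07 with an SE of 0.083 and a 95% interval of -0.11 to 0.24 (edgeR, Benjamini-Hochberg adjusted p = 0.664). In percent, the interval runs from -7.46% to 18.5%. Of its exonic sequence, 15.7% is overlapped by other annotated genes, among them *1810014B01Rik* on the opposite strand, and the strand setting of the counting is not stated.

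*Calr* and *Canx* encode calreticulin and calnexin, the soluble and the membrane-bound lectin chaperones that bind glycoproteins carrying a trimmed sugar chain. *Calr* (chromosome 8, 84841850 to 84846934, minus strand) gave 12170, 13960, 12438, 14308 and 15531 normalized counts in the young mice and 13102, 11750, 14144, 14416 and 12302 in the old mice. Its log2 fold change was -0.05 with an SE of 0.082 and an interval of -0.23 to 0.13 (edgeR, Benjamini-Hochberg adjusted p = 0.756). The old values fell inside the young range except that of old replicate 2. *Canx* (chromosome 11, 50293961 to 50325673, minus strand) gave 5978, 7531, 7473, 7605 and 8703 in the young mice and 7547, 6667, 7682, 7916 and 6867 in the old mice, with a log2 fold change of -0.02, an SE of 0.089 and an interval of -0.21 to 0.18 (edgeR, Benjamini-Hochberg adjusted p = 0.936). Both the highest and the lowest *Canx* value were young, in replicates 5 and 1.

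The protein disulfide isomerases also had small fold changes. *Pdia3*, which encodes ERp57 and works with calreticulin and calnexin on glycoproteins, lies on chromosome 2 (121413775 to 121438687, plus strand). It gave 10665, 12343, 12401, 11806 and 13430 normalized counts in the young mice and 11502, 9959, 12790, 12626 and 10683 in the old mice. Its log2 fold change was -0.07 with an SE of 0.083 and an interval of -0.25 to 0.11 (edgeR, Benjamini-Hochberg adjusted p = 0.661). The lowest of its 10 values was from old replicate 2 and the highest from young replicate 5. *Pdia4* (chromosome 6, 47796141 to 47813430, minus strand) encodes ERp72, and *Pdia6* (chromosome 12, 17266545 to 17284770, plus strand) encodes P5, a partner of BiP that also attenuates active IRE1 and PERK. *Pdia4* ranged from 2317 to 3222 in the young mice and from 2353 to 3092 in the old mice, with a log2 fold change of 0.01 and an interval of -0.20 to 0.21. *Pdia6* ranged from 3764 to 4885 in the young mice and from 3662 to 4644 in the old mice, with a log2 fold change of -0.06 and an interval of -0.25 to 0.14. The adjusted p of *Pdia4* was 0.978 and that of *Pdia6* 0.752 by edgeR with Benjamini-Hochberg adjustment.

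*Xbp1* (chromosome 11, 5520659 to 5525893, plus strand) varied most between mice among the 10 genes. It gave 2679, 3720, 2660, 3539 and 3704 normalized counts in the young mice and 3520, 3300, 2812, 2674 and 2596 in the old mice. The values fell into a lower band up to 2812 and an upper band from 3300, with 2 young and 3 old mice in the lower band. The coefficient of variation was 16.7% in the young mice and 13.7% in the old mice, where counting error alone would give 1.79%. The log2 fold change was -0.12 with an SE of 0.12 and an interval of -0.38 to 0.14 (edgeR, Benjamini-Hochberg adjusted p = 0.574). *Xbp1* is also a factor of plasma cells, whose 13 other markers summed to 1480 to 2302 normalized counts in the young mice and 1593 to 3523 in the old mice. In the young mice most of that sum was *Sdc1*, a surface proteoglycan, which was called lower in old aortae (1107 to 1541 in young, 776 to 1115 in old). In old replicates 2 and 3 the immunoglobulin gene *Ighm* (1036 and 1224) exceeded *Sdc1* (776 and 1060). *Ighm* was not called (log2 fold change 1.13, edgeR, Benjamini-Hochberg adjusted p = 0.120). The immunoglobulin gene *Igkc* was called higher (9.06 to 90.0 in young, 83.6 to 824 in old), and *Jchain*, too low to be tested, had 2.01 to 4.99 in young and 6.81 to 70.8 in old aortae. The part of plasma cells in the *Xbp1* counts was not tested.

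Of the sensors, *Ern1* (chromosome 11, 106394650 to 106487852, minus strand) had a coefficient of variation of 6.32% in the young mice, the lowest of the 10 genes, and of 9.36% in the old mice. Its normalized counts were 803, 875, 948, 889 and 927 in the young mice and 789, 969, 781, 894 and 820 in the old mice, with a log2 fold change of -0.06, an SE of 0.073 and an interval of -0.21 to 0.10 (edgeR, Benjamini-Hochberg adjusted p = 0.683). *Atf6* (chromosome 1, 170704674 to 170867771, minus strand) gave 1629, 2075, 1915, 1894 and 2090 in the young mice and 1806, 1702, 1938, 1904 and 1683 in the old mice, with a log2 fold change of -0.08, an SE of 0.073 and an interval of -0.24 to 0.08 (edgeR, Benjamini-Hochberg adjusted p = 0.531). All 5 old *Atf6* values fell inside the young range.

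*Eif2ak3*, which encodes PERK, was the one of the 10 nearest to a difference (chromosome 6, 70844515 to 70905245, plus strand). Its normalized counts were 725, 845, 627, 816 and 860 in the young mice and 708, 660, 673, 718 and 598 in the old mice. Young replicates 1, 2, 4 and 5 were above every old aorta, and young replicate 3 was lower than 4 of the 5 old aortae. The means were 775 ± 97.7 (SD, n = 5) in the young mice and 671 ± 47.5 (SD, n = 5) in the old mice. The log2 fold change was -0.20 with an SE of 0.088 and an interval of -0.39 to -0.01, and edgeR's Benjamini-Hochberg adjusted p was 0.168, so that it did not pass. Over 19 alternative settings the adjusted p ranged from 0.0445 to 0.329, and it passed only without young replicate 3, where the log2 fold change was -0.26. The other eIF2 kinases, which respond to other stresses, did not pass either with all 10 mice. Their log2 fold changes were 0.06 for *Eif2ak1*, 0.25 for *Eif2ak2* and -0.02 for *Eif2ak4*. These kinases belong to a list of relatives of the 10 genes, of which 8 were tested. Without young replicate 3, 2 of the 8 were called, 1 of them higher in old aortae. That refit called 1484 of the 14614 tested genes, 872 of them higher. Of the exonic sequence of *Eif2ak3*, 8.05% is overlapped by *Gm43292* on the opposite strand.

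The levels of the 10 genes relative to each other were compared per length, as counts per kilobase of exonic sequence scaled to library size (RPKM), over all 10 mice. *Calr* had the highest level with a mean of 215, followed by *Pdia3* with 174 and *Hsp90b1* with 166, and *Hspa5*, with 157, lay next to them. The range of each of these overlapped that of the next over the 10 mice. *Canx* (72.9), *Pdia4* (53.7), *Pdia6* (52.6) and *Xbp1* (44.4) formed a middle group, again with overlapping neighbours. The sensors were lowest, with *Atf6* at 9.34, *Eif2ak3* at 5.55 and *Ern1* at 4.92, and *Calr* stood 43.8 times above *Ern1* per length. The ranges did not overlap between *Hspa5* and *Canx*, between *Xbp1* and *Atf6*, or between *Atf6* and *Eif2ak3*, whereas *Eif2ak3* and *Ern1* overlapped. *Calr* exceeded 99.0% of tested genes per length and *Ern1* 52.6%. Together the 10 genes took 0.280% ± 0.0213 of all counts in the young mice and 0.281% ± 0.0216 in the old mice (SD, n = 5).

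Between mice of 1 age the chaperones deviated together. With the group means removed, the 45 pairs of the 10 genes were correlated over the 10 mice on the log2 scale. Of the 45, 17 reached a Benjamini-Hochberg adjusted p below 0.05 for Pearson's r in an exact permutation test within ages, and all 17 also did for Spearman's rho and were positive. Of the 15 pairs between the 6 chaperones and disulfide isomerases, 10 passed, and r over the 15 lay between 0.66 and 0.95, with 0.85 as the median. The closest pair was *Hsp90b1* with *Pdia3* (r = 0.95, adjusted p = 0.0075; rho = 0.92, adjusted p = 0.0211, exact permutation, n = 10), and r was 0.94 without the 2 mice farthest from the median of *Hsp90b1*. Among all 17 pairs r was between 0.68 and 0.96 when the 2 farthest mice were left out. The count of passing pairs fell to 8 without young replicate 5 and to 10 without either young replicate 1 or old replicate 1, was 13 with scaling by library size alone, and was between 13 and 22 without any 1 of the other mice.

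Among the sensors, *Atf6* passed with all 6 chaperones, with r from 0.82 to 0.93 (*Hsp90b1*) and adjusted p from 0.0075 to 0.025, and rho from 0.81 to 0.94 with adjusted p from 0.0172 to 0.0379 (exact permutation, n = 10). Some deviations of *Atf6* were nearly equal, and with deviations rounded to 3 decimals, a setting chosen after seeing the data, 17 pairs again passed by both measures. The chaperone pairs of *Ern1* did not pass, with r from -0.12 to 0.24, nor did those of *Xbp1*, with r from 0.11 to 0.72. *Eif2ak3* passed with 1 of them, *Pdia6* (r = 0.87, adjusted p = 0.0128; rho = 0.87, adjusted p = 0.0344, exact permutation, n = 10). None of the 6 pairs among *Xbp1* and the sensors passed. Differences between these correlations were not tested. All pairs share the libraries and their size factors. Across all tested genes the median r with a member was between -0.02 and 0.02. The size factors hold the typical gene near its mean in each library. This median therefore cannot show how far the shared libraries shape these pairs. An r of 0.85 or more, the chaperones' median, was reached with *Pdia3* by 1.53% of tested genes and 14.5% of the other ER genes. Such an r was reached with *Canx* by 1.91% and 14.5%, and with *Ern1* by 0.164% and 0% of 124. With the remaining members, the share of the other ER genes was 12.9% (*Hsp90b1*), 11.3% (*Calr*) and 8.06% (*Pdia4*, *Pdia6* and *Atf6* each). That share was 8.87% with *Xbp1*, above those with *Pdia4*, *Pdia6* and *Atf6*, and 1.61% with *Eif2ak3*.

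**Figure D2:**
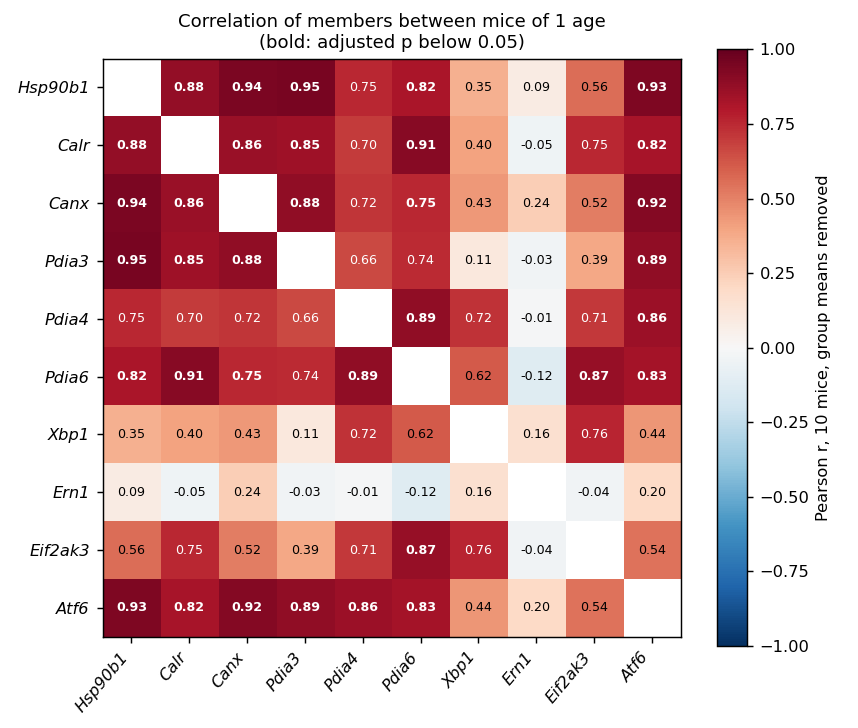
Pearson r between each pair of the 10 genes over 10 mice, after removal of the age group means, on a colour scale from -1 (blue) to 1 (red). Bold values have an adjusted p below 0.05. The block of 6 chaperones and the row of *Atf6* hold 16 of the 17 bold pairs, and the row of *Ern1* holds none.

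The mice behind this pattern can be named. In young replicate 1 all 6 chaperones were below the young mean, by 0.21 on the log2 scale on average, and in young replicate 5 all 6 were above it, by 0.17. In old replicates 2 and 5 all 6 were below the old mean, with an average deviation of -0.14 in each, and in old replicates 3 and 4 all 6 were above it, by 0.12 and 0.10. The mitochondrial share of counts was 11.0% in old replicate 2 and 5.55% in old replicate 5, which were equally low, and 6.51% in old replicate 1, where the chaperones were 0.05 above the old mean. It was 6.17% in young replicate 1 and 6.22% in young replicate 3, where the average deviation was -0.06. Its part in these deviations was not tested.

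**Figure D3:**
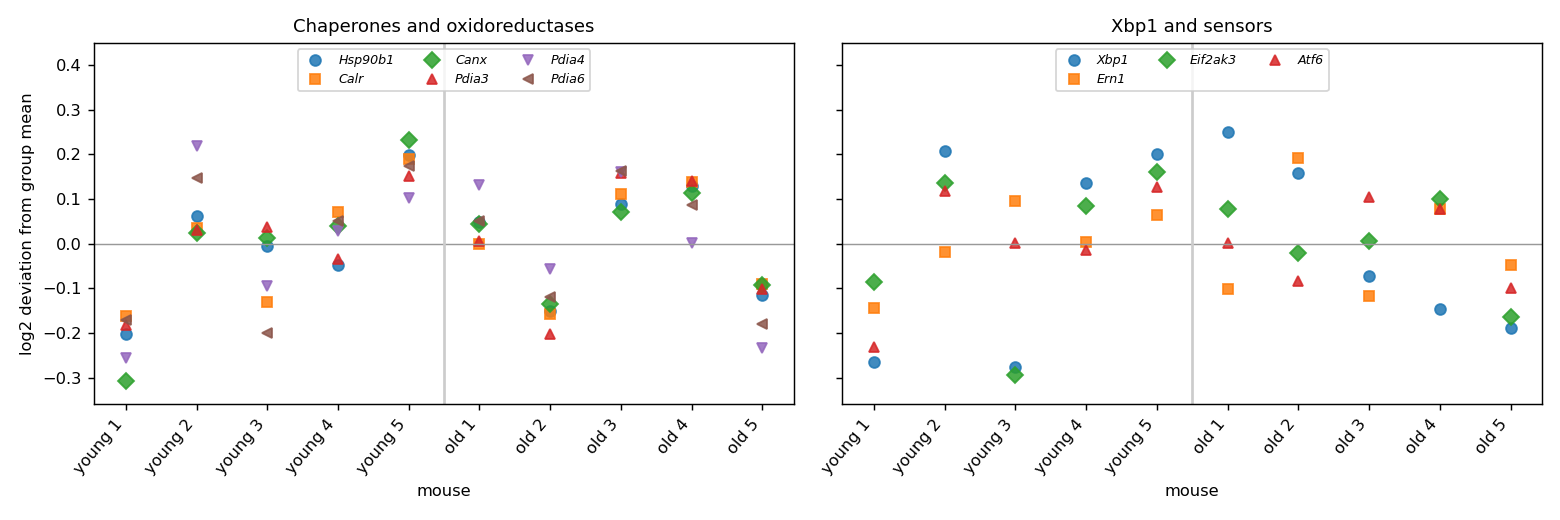
Log2 deviation of each gene from the mean of its age group (vertical axis) in each mouse (horizontal axis, young left and old right of the grey line), with the 6 chaperones and disulfide isomerases on the left and *Xbp1* and the sensors on the right. The chaperone points of 1 mouse cluster on 1 side of 0 in young replicates 1, 2 and 5 and in old replicates 2, 3, 4 and 5, while the points on the right spread to both sides in most mice.

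The genes with the most similar pattern over the 10 mice, by Pearson r with group means removed and among all tested genes, are given as a description. For *Hsp90b1* they were *Sec23a* (r = 0.97), a coat protein of vesicles leaving the ER, and *Ddb1* (0.97). For *Calr* they were *Lman2* (0.96), a lectin of the early secretory pathway, and *Tmem109* (0.96). For *Canx* they were *Rab5a* (0.98) and *M6pr* (0.97), and for *Pdia3* *Atp6ap2* (0.98) and *Tmed10* (0.97), a cargo receptor between ER and Golgi. *Pdia4* was nearest to *Shq1* and *Slc35b1* (0.97 and 0.96), and *Pdia6* to *Creld1* and *Nans* (0.97 and 0.96). *Xbp1* was nearest to *Txndc11* (0.98), a thioredoxin domain protein of the ER, and to *Fbxo40* (0.97). The sensors' nearest genes were *Cemip2* (0.97) and *Tango6* (0.93) for *Ern1*, *Atf6b* (0.95) and *Clcn7* (0.91) for *Eif2ak3*, and *Man1a2* (0.97) and *Xxylt1* (0.96) for *Atf6*. Of all these nearest genes, only *Lman2*, *Txndc11* and *Atf6b* belong to the lists of other ER genes given below.

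*Hspa5* and 8 other UPR genes did not pass the test, while *Atf4* and *Ppp1r15a*, transcripts known to rise through PERK, were called lower and are described below. *Hspa5* gave 9319, 18129, 11351, 16031 and 18264 normalized counts in the young mice and 15666, 14231, 14507, 14407 and 11967 in the old mice. Its log2 fold change was -0.04 with an SE of 0.17 and an interval of -0.42 to 0.35 (edgeR, Benjamini-Hochberg adjusted p = 0.919), wider than that of any of the 10 genes. Its coefficient of variation was 27.9% in young and 9.52% in old aortae, a difference that was not tested. The other targets named by rule had log2 fold changes of -0.03 (*Hyou1*, the large Hsp70 of the ER), -0.08 (*Dnajb9*), 0.15 (*Sdf2l1*), 0.09 (*Creld2*), 0.00 (*Manf*) and -0.07 (*Herpud1*), with edgeR Benjamini-Hochberg adjusted p from 0.735 to 0.997. *Ddit3*, which encodes the factor CHOP downstream of PERK, was at 0.06 (adjusted p = 0.844), and *P4hb*, the archetypal disulfide isomerase, was at -0.09 (adjusted p = 0.450, both by edgeR with Benjamini-Hochberg adjustment).

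Beyond these genes, 125 other ER genes were taken in 6 lists by role, and 124 were tested. Of the 124, 11 were called by edgeR (8.87%), fewer than the 11.5% called among all tested genes. All 11 were lower in old aortae, while 4.99% of all tested genes were called lower and 6.48% higher. The 124 had a median log2 fold change of -0.07, and 89 were negative, against a median of 0.00 and 7196 negative among all 14614 tested genes. 1 gene, *Fkbp2*, was called higher when library size or the upper quartile set the scale, and when young replicate 5 was left out. The ER Hsp70 system had 1 of 16 called, *Dnajc10*, a disulfide reductase (log2 fold change -0.22, edgeR adjusted p = 0.0434). Oxidoreductases and prolyl isomerases had 4 of 25, *Tmx1* (-0.36), *Gpx7* (-0.38), *Erp29* (-0.21) and *Ppic* (-0.26). Translocon and signal peptidase had 2 of 17, *Ssr2* (-0.29), of the complex beside the protein channel, and *Spcs3* (-0.36). N-glycosylation and the lectin cycle had 0 of 17 by edgeR, with 3 at an unadjusted p below 0.05, 1 by DESeq2 and 0 by limma-voom, and its most abundant genes *Rpn2* and *Mlec* were at -0.02 and 0.05. ER-associated degradation had 0 of 26 by edgeR, with 3 at an unadjusted p below 0.05, 1 by DESeq2 and 0 by limma-voom, and its most abundant genes *Vcp* and *Sel1l* were at -0.02 and -0.08.

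UPR regulators and effectors had 4 of 24 called, all lower. Of all tested genes 11.5% were called and 4.99% were called lower. Of the 24, limma-voom called 3 and DESeq2 5. The edgeR count was 2 without young replicate 4 or young replicate 5, where 1115 and 1264 of all tested genes were called. Of the 4, 3 belong to the branch of PERK and the other eIF2 kinases. *Atf4*, the transcription factor translated when eIF2 is phosphorylated, gave 3675, 4454, 3846, 5300 and 4521 normalized counts in the young mice and 3318, 2985, 2571, 3263 and 3544 in the old mice, without overlap. Its log2 fold change was -0.47 with an SE of 0.11 (edgeR, Benjamini-Hochberg adjusted p = 0.0129). *Ppp1r15a* and *Ppp1r15b*, which encode the subunits that bring phosphatase to eIF2, were at -0.42 and -0.26 (adjusted p = 0.0211 and 0.00957, edgeR with Benjamini-Hochberg adjustment), also without overlap. The fourth was *Creb3l1*, a membrane-bound transcription factor of the ATF6 kind (-0.33, adjusted p = 0.0455).

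Of the 11 genes, *Atf4*, *Gpx7*, *Ppp1r15b*, *Ssr2* and *Tmx1* were called in every one of 19 alternatives. Of the other 6, *Erp29* lost its call without young replicate 4 or old replicate 4, *Ppp1r15a* without young replicate 4, young replicate 5 or old replicate 4, and *Dnajc10*, *Ppic*, *Spcs3* and *Creb3l1* on omission of any of 7 to 8 of the 10 mice. Calls were also lost by method, that of *Erp29* with the correction for GC content and length, those of *Creb3l1* and *Spcs3* by limma-voom, those of *Dnajc10*, *Ppic* and *Creb3l1* with upper-quartile scaling and scaling by library size alone, and that of *Dnajc10* without a low-count filter. The count over the 124 was 20 without young replicate 1, 5 without young replicate 4, and 7 without young replicate 2, young replicate 5, old replicate 4 or old replicate 5. Over all 14614 tested genes it was 1676 with all mice, 2336 without young replicate 1 and 1115 without young replicate 4. For the other 4 omissions named, it was between 1206 and 1434. The count over all tested genes thus moved in the same direction. Of the exonic sequence of *Erp29* 26.4%, of *Ssr2* 12.8% and of *Ppp1r15b* 11.4% is overlapped by other genes.

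**Figure D4:**
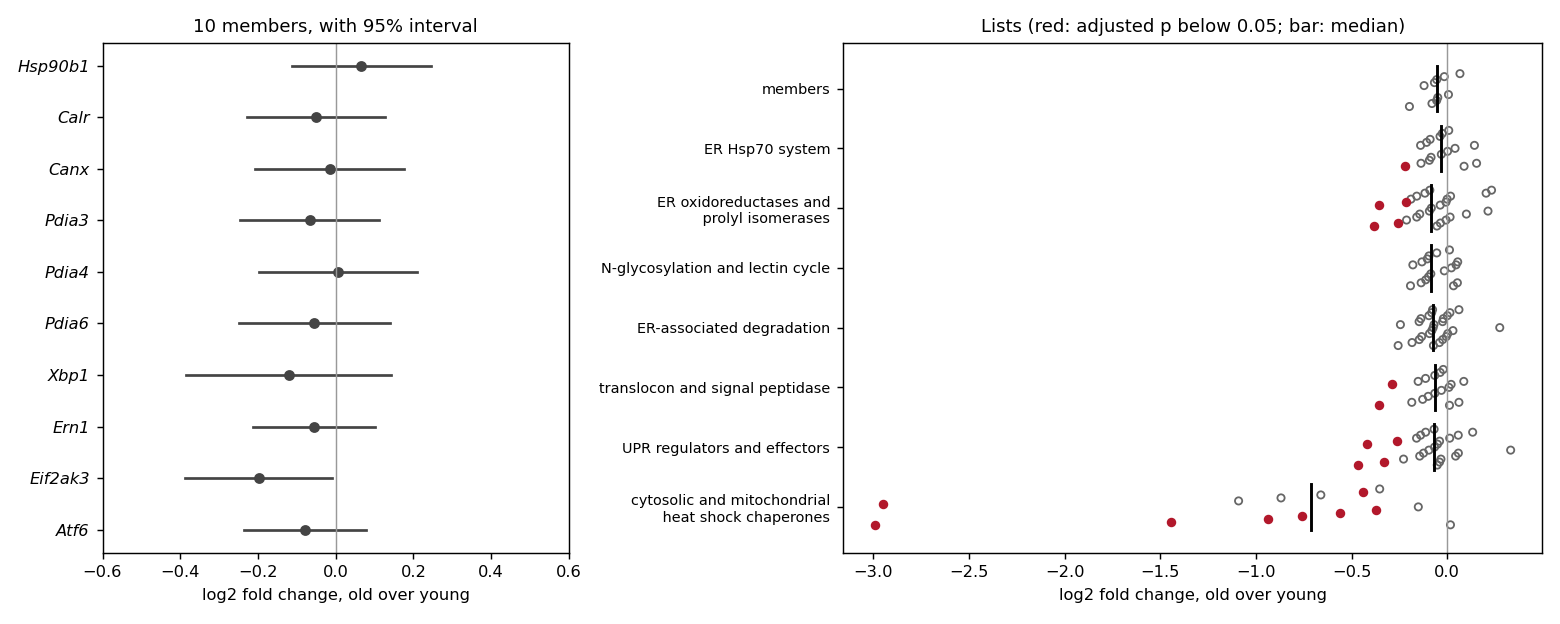
Log2 fold change, old over young (horizontal axes). Left, the 10 genes with their 95% intervals, all within ±0.5 and all but that of *Eif2ak3* holding 0. Right, 1 point per tested gene for the 10 genes ("members") and 7 lists, red where the edgeR adjusted p is below 0.05, with a bar at the median. The red points all lie left of 0, and the median of the cytosolic and mitochondrial chaperones (-0.71) lies far left of those of the ER lists.

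The chaperones of the cytosol and mitochondria were examined beside those of the ER. Of 14 listed, 8 were called lower in old aortae (57.1%) and none higher, with a median log2 fold change of -0.71. Most of these genes were picked by the study on these samples, so that their count is not independent evidence of their direction. *Hspa1a* and *Hspa1b*, the stress-inducible Hsp70 genes, were at -2.95 and -2.99 (edgeR, Benjamini-Hochberg adjusted p = 0.0134 and 0.0145), and *Hspa4* at -0.37 and *Dnajb1* at -1.44. Of the 50-base windows of *Hspa1a* 66.3% and of *Hspa1b* 62.3% occur in other annotated transcripts, including each other's. The count was 13 without young replicate 1, and 3 or 4 without young replicate 2, 4 or 5 or without old replicate 2, 3, 4 or 5. Over all 14614 tested genes it was 1676 with all mice and 2336 without young replicate 1. It was between 1115 and 1523 for those other omissions.

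To compare the ER proteins directly with their relatives, log2 ratios of counts within each library, which do not depend on scaling, were taken for 5 pairs. *Hsp90aa1*, *Hsp90ab1* and *Hspa8* were among the genes the study picked as lower in these old aortae, so their ratios are given as a description, with no test. *Hsp90b1* over *Hsp90aa1*, the inducible cytosolic Hsp90, was 0.94, -0.07, 0.43, 0.21 and 0.53 in young and 0.90, 1.09, 1.41, 1.36 and 1.19 in old aortae. All but 1 old ratio exceeded every young one, and the difference of the means was 0.78, close to the fall of *Hsp90aa1* itself given below. *Hsp90b1* over *Hsp90ab1*, the constitutive cytosolic Hsp90, went from -1.31 ± 0.24 in the young mice to -0.91 ± 0.13 in the old mice (SD, n = 5), by 0.40, with 4 of 5 old ratios above every young one. *Hspa5* over *Hspa8*, the constitutive cytosolic Hsp70, went from -1.40 ± 0.15 to -0.77 ± 0.23, by 0.63, with all 5 old above every young ratio.

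The ratio of *Hsp90b1* to *Trap1*, the mitochondrial Hsp90, differed by 0.05 (exact two-sided permutation test, p = 0.675, adjusted over the 5 pairs p = 0.843), and that of *Atf6* to its relative *Atf6b* by -0.01 (exact permutation, p = 0.929, adjusted p = 0.929). For both, the ages overlapped widely. On their own, *Hsp90aa1* was at a log2 fold change of -0.76 (edgeR, Benjamini-Hochberg adjusted p = 0.0300), and *Hsp90ab1* at -0.35 and *Hspa8* at -0.66 did not pass (adjusted p = 0.0769 and 0.0588, edgeR with Benjamini-Hochberg adjustment) but passed without young replicate 1 and by DESeq2, and *Hspa8* also without old replicate 1. Of the 50-base windows of *Hsp90aa1* 47.5% and of *Hspa8* 39.4% also occur in other annotated transcripts, and how reads shared between such copies were counted is not stated.

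**Figure D5:**
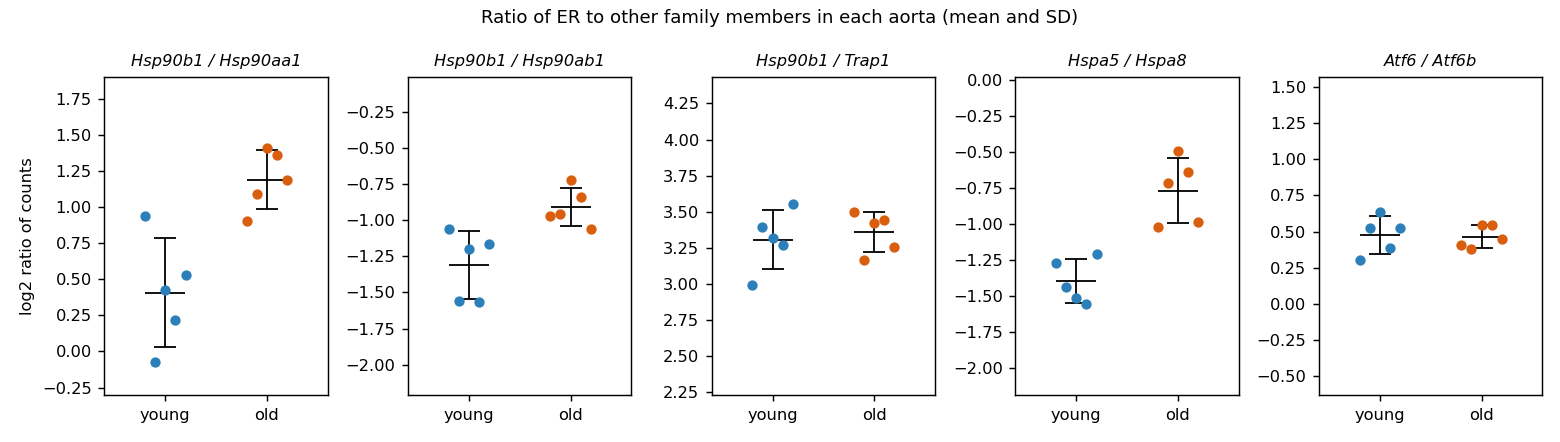
Log2 ratio of counts (vertical axes, each spanning the same range) for 5 pairs of related genes in 5 young (blue) and 5 old (orange) aortae, with mean and SD in black. The old points lie above the young ones for *Hsp90b1* over *Hsp90aa1* and over *Hsp90ab1* in 4 of 5 mice and for *Hspa5* over *Hspa8* in 5 of 5, and mix with them in the other panels.

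Close relatives of the 10 genes that are used in other tissues were nearly silent. *Ern2*, the epithelial IRE1, had 0 counts in all libraries, *Pdia2* had 2 counts in all young and 2 in all old aortae, *Calr4* 7 and 6, and *Clgn* 10 and 19. *Calr3* averaged 14.1 normalized counts in the young mice and 17.4 in the old mice.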

How the data were processed

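RNA was measured in the aortae of 5 young and 5 old mice with poly(A) libraries (TruSeq Stranded mRNA). Per the labels and methods, the authors cleaned reads with fastp 0.20.0, removing those under 35 bases, aligned them to GRCm38 with STAR 2.7.0f (GENCODE M22), and counted them with featureCounts (Subread 1.6.4). The deposited values are these raw counts per gene symbol; the strand setting and the treatment of reads with several alignments are not given in the sources used here. From the counts, 14614 of 28011 genes with a count passed filterByExpr, and ages were compared with edgeR 4.0.16 (R 4.3.3, quasi-likelihood F test, robust, TMM scaling, no covariates), Benjamini-Hochberg adjusted over all genes tested and called below 0.05. Normalized counts use the size factors of DESeq2 1.42.0. DESeq2 (17676 genes with an adjusted p) and limma-voom (3.58.1) were alternatives, with other scalings, filters and offsets for GC content and exonic length (14512 of 14614 genes). RPKM and positions use GENCODE M21 (54402 symbols matched to 1 gene). Single ratios and correlations were tested by exact permutation (252 assignments, or 14400 orders within ages); p-values of the 3 ratios to genes the study had picked on these samples are not given. Correlations used log2(normalized count + 0.5). The 10 genes, the lists, the 5 ratios and the tests were chosen with earlier results of these data known. Named were the 10 genes, up to 4 called genes with the smallest p per list and direction (its 2 most abundant genes if none), 10 known UPR genes, the ratio genes and each member's 2 nearest genes; *Fkbp2*, the paralogs and the promoter matches were added after their values were seen. Depth was 19640401 to 22886153 counts per library, so that counting error of the 10 genes had a coefficient of variation of 0.829% to 3.71%, below their spread between mice of 6.32% to 16.7%. All 3 count tools were tested on simulated data.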

Additional observations from a re-analysis of the deposited data

Results flagged for a closer look

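In 96 groups of 5 values examined, 6 held 1 mouse standing apart from the other 4 by Dixon's criterion, which chance gives in about 1 of 20 groups, and none belonged to the 10 genes. *Spcs3* was low in young replicate 1, with 1435 normalized counts against 2059 in the next mouse, and in old replicate 5, with 1354 against 1548. *Tmx1* was low in young replicate 1 (1285, next 1545), where *Trap1* was high (1538, next 1419). *Ppic* was high in young replicate 2 (1474, next 1368), and *Hsp90aa1* was high in old replicate 1 (8150, next 6267).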

How the results depend on the processing

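The count of 0 called among the 10 genes held in all 20 settings but 1, and was between 0 and 1 when each mouse was left out in turn. Over 19 refits *Canx* was negative in 14 and *Pdia4* in 6, while *Hsp90b1* stayed positive and the other 7 genes negative in all 19. Of the 124 other ER genes, 11 were called, between 5 and 20 without 1 mouse, 3 at an adjusted p below 0.01, and 5 with the replicate block, those called in all alternatives, of which 2 are UPR regulators. Over all tested genes the count without 1 mouse was between 1115 and 2336. Among 45 pairs, 17 passed, and between 8 and 22 without 1 mouse. Same-numbered mice of both ages did not deviate together (correlations of -0.30, -0.07, 0.10, -0.05 and 0.13, with 2 of 5 closest to their own number), so the replicate numbers were not taken as pairs. With the replicate block, 1261 genes were called against 1676. The ratio differences were again 0.78 (*Hsp90b1* to *Hsp90aa1*), 0.40 (*Hsp90b1* to *Hsp90ab1*) and 0.63 (*Hspa5* to *Hspa8*). Any pairing of the 5 young with the 5 old mice gives the same mean difference, so this is no check. An exact sign-flip permutation over 5 pairs cannot pass either, since its smallest p is 0.0625. The cytosolic and mitochondrial list had 8 called, 4 without a low-count filter and 1 with the block. The cause of these shifts was not tested. Of the calls higher in old aortae, all genes had 947 of 1676, 1076 of 1692 under upper-quartile scaling and 1034 of 1649 by library size. With 5 mice an age, differences smaller than the intervals given were not detectable, and nothing here measures protein or splicing.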
